A study of Mus musculus with 4 samples.

Results

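Genes of bone morphogenetic protein (BMP) and activin signalling, with the Id genes that lie downstream of BMP, were compared between satellite cells of young and aged mice. The set has 10 genes: the ligands Bmp4 and Mstn, the antagonist Fst, the receptors Bmpr1a, Acvr1, Bmpr2 and Acvr2b, and the targets Id1, Id2 and Id3. Members were the probe sets, the groups of short probes that report 1 transcript on an Affymetrix array, that the platform annotation gives to exactly 1 of these genes. They numbered 23 of the 45101 probe sets in the table and covered 9 of the 10 genes. No probe set is named Mstn in the annotation used, so Mstn is not analysed here. The young animals were aged 3 to 6 months and the aged animals 20 to 25 months, all of strain C57BL/6J, and no treatment is named. Satellite cells, the stem cells of skeletal muscle, were pooled from hindlimb muscle of several mice (6 to 8 in the sample text, 4 to 8 in the series text) and sorted by the surface protein syndecan-4. There were 2 pools per age with 1 array each, and all 4 RNAs went through 2 rounds of linear amplification. Values are taken as log2 and are relative to the median of each probe set over the 4 arrays, so they show differences between arrays and no level, and the presence of satellite cell markers could not be checked.

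BMP ligands bind pairs of type I and type II receptor kinases. In the BMP arm the type I receptors phosphorylate SMAD1, SMAD5 and SMAD9, which enter the nucleus with SMAD4 and switch on target genes, Id genes first among them. Id proteins bind E proteins, the partners of MyoD and related factors, and so hold back muscle differentiation. Myostatin and activins signal through ACVR2B and ACVR2A to SMAD2 and SMAD3, limit muscle growth, and are bound and blocked by follistatin.

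The 3 Id genes were all higher in aged cells, by 0.90 to 1.19 on the log2 scale, and in each of them both aged pools lay above both young pools. The same held for 5 of the 9 genes, where it held for 19.9% of all genes, and in 2 of the 9 both aged pools lay below both young, as in 16.9% of all genes. The type I receptors Acvr1 and Bmpr1a were lower in aged cells by 1.18 and 0.90, with probe sets that disagreed in size and, for Bmpr1a, in direction. The type II receptors Acvr2b and Bmpr2 differed by 0.53 and 0.19, and the ligand Bmp4 and the antagonist Fst had overlapping ages. With limma and Benjamini-Hochberg adjustment, 0 of the 9 genes and 0 of the 23 probe sets passed an adjusted p of 0.05, and neither did any gene on the array (0% of 18193 genes and 0% of 34945 probe sets). With a variance trend in the fit, 221 genes (1.21%) and 183 probe sets (0.524%) of the array passed, and 0 of them were members. At an unadjusted p under 0.05, Id1 alone of the 9 genes was higher, where 2.85% of all genes were, and 0 of the 9 were lower, where 6.19% of all genes were. Without young replicate 1, young replicate 2 or aged replicate 2 the number higher was 0, and without aged replicate 1 it was 2, Id1 and Id2. In those fits 2.10%, 1.54%, 3.67% and 3.50% of all genes were higher, in the order given. The number lower became 1 when young replicate 2 (then Acvr1) or aged replicate 2 (then Bmpr1a) was left out, where 5.95% and 4.84% of all genes were lower. Of the probe sets, 2 of 23 were higher at that p (2.56% of all probe sets) and 1 was lower (5.37% of all). Ages did not overlap in 12 of the 23: 8 had both aged arrays above both young, as did 18.4% of all probe sets, and 4 had both below, as did 16.3% of all. Probe sets of 1 gene read RNA of the same pools and are no replicates of each other. In pooled cells, fewer cells of a type and less RNA per cell cannot be told apart.

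**Figure D1:**
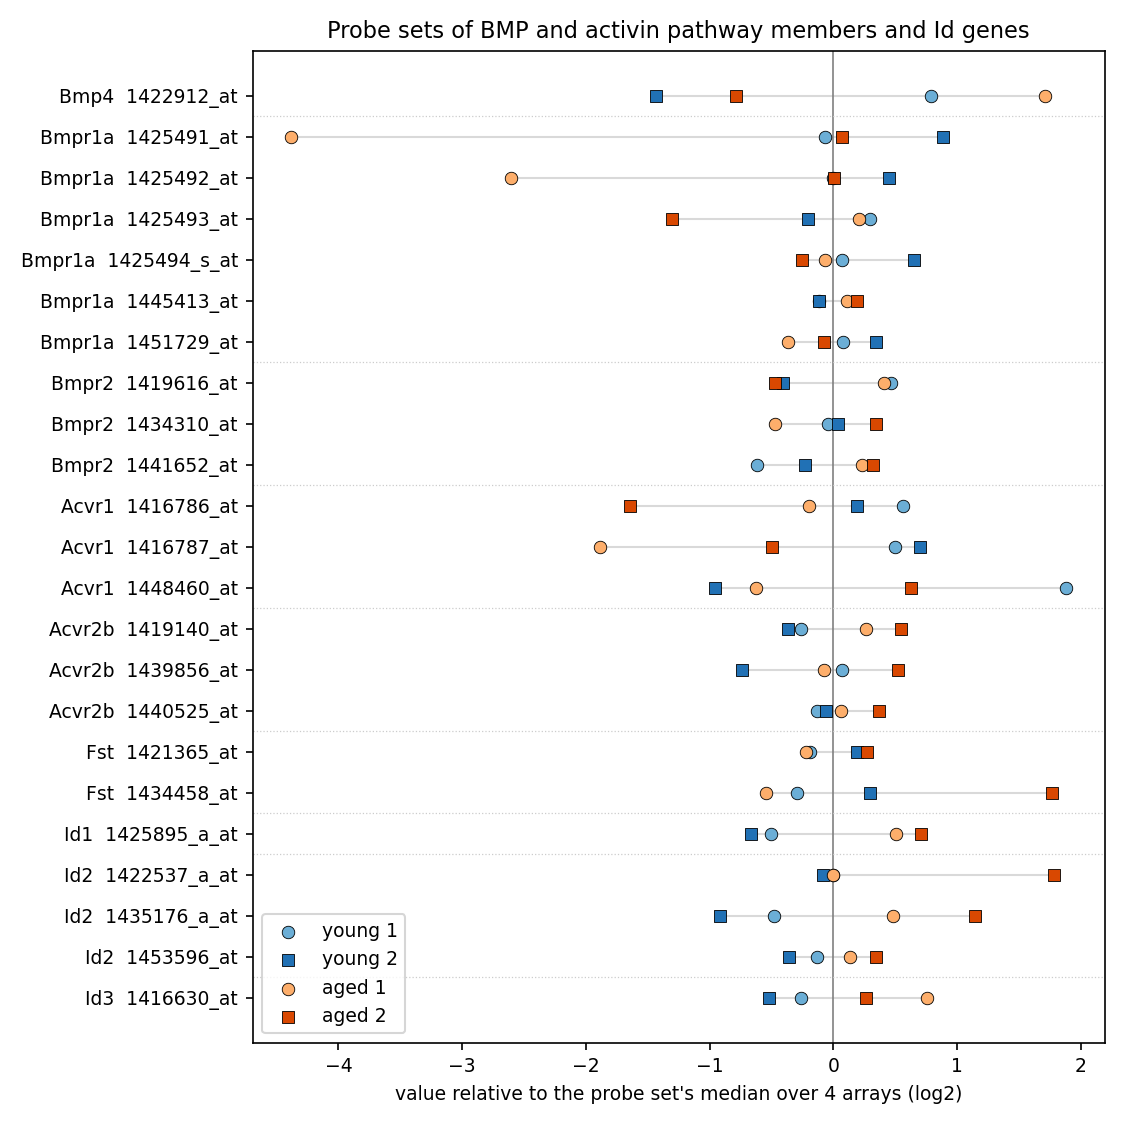
Centred log2 value (horizontal axis) of each of the 23 probe sets (rows, grouped by gene) on the 4 arrays, young in blue and aged in orange, circles for pools numbered 1 and squares for pools numbered 2. The orange points of Id1, Id3 and most Id2 rows lie to the right of the blue ones, while aged 1 lies far to the left in 2 Bmpr1a rows, at -4.38 and -2.61.

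Among the ligands, Bmp4, a BMP made by many mesenchymal and vascular cells, stood at 0.79 in young 1, -1.43 in young 2, 1.71 in aged 1 and -0.79 in aged 2. Both pools numbered 1 were high and both pools numbered 2 were low, at either age. The age difference was 0.78 ± 1.06 (standard error of the limma fit here and below, n = 2 pools per age; limma adjusted p = 0.919). The young pools lay 2.22 apart and the aged pools 2.50 apart, so the age difference was smaller than the spread within either age. Leaving out young replicate 2 gave -0.33, and leaving out aged replicate 1 gave -0.47.

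Fst encodes follistatin, which binds activins and myostatin and blocks their access to the receptors. Its mean over 2 probe sets was -0.24 in young 1, 0.24 in young 2, -0.38 in aged 1 and 1.02 in aged 2. Only aged 2 stood apart, and it did so through 1434458_at, where it read 1.77 and the other 3 arrays lay between -0.54 and 0.29. The second probe set, 1421365_at, lay between -0.22 and 0.28 on all 4 arrays. The gene difference was 0.32 ± 0.57 (limma adjusted p = 0.943), and -0.38 without aged replicate 2.

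The type I receptors carry the kinase that acts on SMADs. Acvr1 encodes ALK2, a BMP type I receptor in which activating mutations cause bone formation inside muscle in people. Its gene mean was 0.98 in young 1, -0.02 in young 2, -0.90 in aged 1 and -0.50 in aged 2, so both aged pools lay below both young pools. The difference was -1.18 ± 0.48, a 2.27-fold lower value, with a limma adjusted p of 0.561 and a 95% interval from -2.38 to 0.01. The unadjusted p was 0.0518. Without 1 array the difference ran from -1.68 to -0.68, the latter without young replicate 1, and it was -0.46 when the gene was read from its most variable probe set. Among all genes, 7.34% had a lower difference.

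The 3 probe sets of Acvr1 did not give the same picture. In 1416787_at the values were 0.50 in young 1, 0.70 in young 2, -1.89 in aged 1 and -0.50 in aged 2. This was the 1 member probe set that was lower at an unadjusted p under 0.05, with a difference of -1.79 ± 0.61 (unadjusted p = 0.0341, limma adjusted p = 0.577). In 1416786_at the values were 0.56, 0.19, -0.19 and -1.64 in the same order, and aged 2 rather than aged 1 was the lowest. In 1448460_at the values were 1.88, -0.96, -0.63 and 0.63, with overlapping ages and a difference of -0.46 ± 1.09. That last difference turned to 0.96 without young replicate 1 and to 0.17 without aged replicate 1.

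Bmpr1a encodes ALK3, the BMP type I receptor that binds BMP2 and BMP4. Its mean over 6 probe sets was 0.04 in young 1, 0.34 in young 2, -1.18 in aged 1 and -0.23 in aged 2, with both aged pools below both young. The difference was -0.90 ± 0.46 (limma adjusted p = 0.685; 95% interval -2.05 to 0.26), and -0.42 without aged replicate 1. Aged 1 set most of it. In 1425491_at aged 1 read -4.38 while the other 3 arrays lay between -0.07 and 0.89. In 1425492_at aged 1 read -2.61 while the others lay between -0.01 and 0.45.

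The other 4 probe sets of Bmpr1a moved by less. The differences were -0.59 in 1425493_at, where aged 2 and not aged 1 was the low array at -1.30, -0.52 in 1425494_s_at and -0.43 in 1451729_at. In 1445413_at the sign was opposite, with -0.11 in young 1, -0.11 in young 2, 0.11 in aged 1 and 0.19 in aged 2. Of the 6 probe sets, 5 carry the same source sequence in the platform annotation, and 1445413_at carries another. The differences of the 6 spanned 2.83, a wider span than in 79.1% of the 244 genes with 6 probe sets, whose median span was 1.90. The 3 probe sets of Acvr1 spanned 1.33 and those of Acvr2b 0.41, against a median of 1.10 over the 2366 genes with 3 probe sets.

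The type II receptors bind ligand together with type I receptors and activate these. Acvr2b encodes a main receptor of myostatin. Its gene mean was -0.11 in young 1, -0.39 in young 2, 0.08 in aged 1 and 0.48 in aged 2. Both aged pools lay above both young pools, and all 3 probe sets were higher in aged cells, by 0.72, 0.56 and 0.31. The gene difference was 0.53 ± 0.38 (limma adjusted p = 0.818), 1.44-fold, and it ran from 0.33 to 0.73 without 1 array. The nearest aged and young pools lay 0.19 apart, less than the 0.28 between the young pools and the 0.40 between the aged pools.

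Bmpr2, the type II receptor that is mutated in inherited pulmonary hypertension in people, showed the smallest difference of the 9 genes, 0.19 ± 0.36 (limma adjusted p = 0.947; 95% interval -0.70 to 1.08). Its gene mean was -0.06 in young 1, -0.20 in young 2, 0.05 in aged 1 and 0.06 in aged 2. The probe sets 1419616_at and 1434310_at both differed by -0.06, with overlapping ages. The positive mean came from 1441652_at, which read -0.61, -0.23, 0.23 and 0.32 in the order young 1, young 2, aged 1 and aged 2. Of the 15 receptor probe sets, 10 were lower and 5 higher in aged cells, and 8 of the 9 from type I receptors were lower. Of all probe sets, 52.7% were higher.

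**Figure D2:**
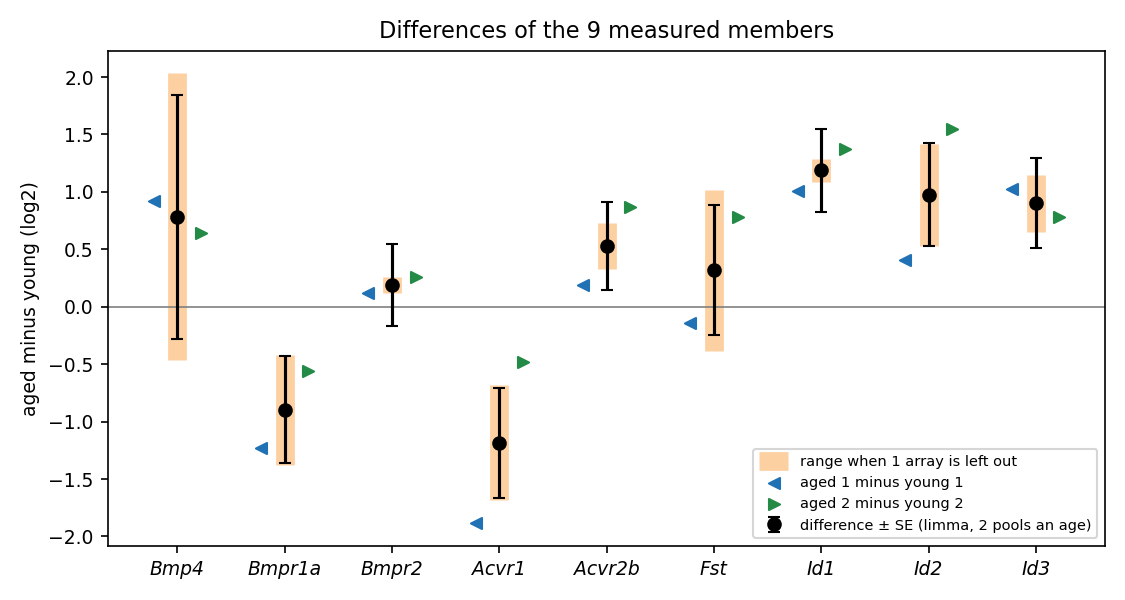
Difference aged minus young (vertical axis, log2) of the 9 measured genes: black points with bars are the limma difference ± standard error, triangles the differences between same-numbered pools, and the wide orange bars the range when 1 of the 4 arrays is left out. The orange bars of Id1, Id2, Id3, Acvr2b and Bmpr2 stay above 0 and those of Bmpr1a and Acvr1 below 0, while those of Bmp4 and Fst cross 0.

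The Id genes encode helix-loop-helix proteins without a DNA-binding region, which take E proteins out of action. Id1 read -0.50 in young 1, -0.67 in young 2, 0.50 in aged 1 and 0.70 in aged 2 on its 1 probe set, 1425895_a_at. The nearest aged and young pools lay 1.01 apart, while the young pools lay 0.16 and the aged pools 0.20 from each other. The gene difference was 1.19 ± 0.36, a 2.28-fold higher value in aged cells (unadjusted p = 0.0188, limma adjusted p = 0.395; 95% interval 0.28 to 2.09). It was the difference with the smallest p-value among the 9 genes, and 96.6% of all genes had a lower one. Without 1 array it ran from 1.09 to 1.29.

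Id3, which like Id1 is abundant in vascular cells and in proliferating progenitors, read -0.26 in young 1, -0.52 in young 2, 0.76 in aged 1 and 0.26 in aged 2. Both aged pools lay above both young pools on its 1 probe set, 1416630_at. The gene difference was 0.90 ± 0.39, or 1.87-fold (unadjusted p = 0.0642, limma adjusted p = 0.595). Between the pools numbered 1 it was 1.02 and between those numbered 2 it was 0.78. Without 1 array it ran from 0.65 to 1.15.

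Id2, an Id protein with roles in lymphoid as well as muscle cells, had a gene mean of -0.20 in young 1, -0.45 in young 2, 0.20 in aged 1 and 1.09 in aged 2. Aged 2 was the highest array in all 3 probe sets. The gene difference was 0.98 ± 0.45, or 1.97-fold (unadjusted p = 0.0763, limma adjusted p = 0.623), with 0.41 between pools numbered 1 and 1.54 between pools numbered 2. It was 0.53 without aged replicate 2 and 1.42 without aged replicate 1.

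The probe sets of Id2 shared their direction and differed in how much aged 2 decided. The probe set 1435176_a_at read -0.48 in young 1, -0.92 in young 2, 0.48 in aged 1 and 1.14 in aged 2, a difference of 1.51 ± 0.47 (unadjusted p = 0.0263, limma adjusted p = 0.529). This was the highest difference of the 23 probe sets. The probe set 1453596_at read -0.13, -0.36, 0.13 and 0.35 in the same order, a difference of 0.49. In 1422537_a_at young 1, young 2 and aged 1 lay within 0.09 of each other and aged 2 read 1.78, so its difference of 0.94 was 0.04 without aged replicate 2. Averaged over the 3 Id genes, the arrays stood at -0.32 and -0.55 for young 1 and 2 and at 0.49 and 0.69 for aged 1 and 2.

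Upstream sequences are shown for Id2 and Id3, 2 members that were higher in aged cells, and for Acvr1, the gene with the lowest difference, because SMADs act on target genes through short sites of this kind. Each is the 250 bases that end just before the gene's annotated start, on the strand of the gene, from RefSeq on GRCm38.p6; Id1 and Fst were named in the set but had no entry. The Id2 window lies at chr12:25096093-25096342 on the minus strand, that of Id3 at chr4:136143572-136143821 on the plus strand and that of Acvr1 at chr2:58566829-58567078 on the minus strand. Capitals mark GGCGCC, a GC-rich site bound by BMP SMADs, and GTCT or its reverse complement AGAC, the SMAD box.
Id2: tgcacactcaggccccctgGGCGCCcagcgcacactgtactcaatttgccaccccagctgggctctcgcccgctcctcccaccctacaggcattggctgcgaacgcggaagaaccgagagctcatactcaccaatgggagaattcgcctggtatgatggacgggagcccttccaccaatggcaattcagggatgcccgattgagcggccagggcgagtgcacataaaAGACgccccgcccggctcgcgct
Id3: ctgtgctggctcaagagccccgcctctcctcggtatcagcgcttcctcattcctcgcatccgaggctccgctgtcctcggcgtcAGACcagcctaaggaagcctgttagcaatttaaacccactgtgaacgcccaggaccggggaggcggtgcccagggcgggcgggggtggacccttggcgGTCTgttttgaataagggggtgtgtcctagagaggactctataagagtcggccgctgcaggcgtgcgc
Acvr1: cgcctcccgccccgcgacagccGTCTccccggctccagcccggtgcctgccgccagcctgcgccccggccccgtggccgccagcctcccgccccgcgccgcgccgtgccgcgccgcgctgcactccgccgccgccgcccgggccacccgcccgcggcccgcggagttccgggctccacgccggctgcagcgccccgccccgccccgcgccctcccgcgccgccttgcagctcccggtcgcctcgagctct
The Id2 window held 1 GGCGCC, a motif found in 9.59% of all 32851 windows of that length when both strands were searched, and those of Id3 and Acvr1 held none. Among member windows not shown, those of Bmpr1a, lower in aged cells, and Bmpr2 each held 1 GGCGCC. The windows of Bmp4, Acvr2b and Mstn held none. Those of Bmpr1a and Acvr2b lie within the annotated gene. GTCT or AGAC occurred 1 time in Id2, 2 times in Id3 and 1 time in Acvr1, and in 82.9% of all windows. The E-box CANNTG, the site of E proteins and MyoD, occurred 1 time in Id2 and in neither of the other 2 windows shown, against 66.2% of all. The marked motifs did not overlap. Guanine and cytosine made up 62.8% of the Id2 and of the Id3 window and 85.6% of the Acvr1 window, and the median of all windows was 52.4%. A match describes the letters of this window and does not show a bound site.

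By the root mean square difference of centred values over the 4 arrays, the genes most like Id1 among 18193 were Gm31875 (0.0545), Osbpl3 (0.0684) and the chemokine Cxcl2 (0.0706). With 4 arrays this likeness says little more than that both ages and pools stood in nearly the same places: Cxcl2 read -0.47, -0.70, 0.47 and 0.83 where Id1 read -0.50, -0.67, 0.50 and 0.70.

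The wider pathway held 91 further listed genes, of which 84 were measured, and its counts lay near or below those of the whole array. There were 46 higher and 38 lower in aged cells, where 53.8% of all genes were higher, a share that also applies to the list counts below. The median difference was 0.08, against a median of 0.05 over all genes. With limma 0 passed the adjusted threshold. At an unadjusted p under 0.05, 1 was higher (1.19%, against 2.85% of all genes) and 2 were lower (2.38%, against 6.19%). Leaving out 1 array, which leaves a lone pool at 1 age, changed these counts. Both aged pools lay above both young in 15 of the 84 (17.9%, against 19.9% of all genes) and below in 8 (9.52%, against 16.9%).

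**Figure D3:**
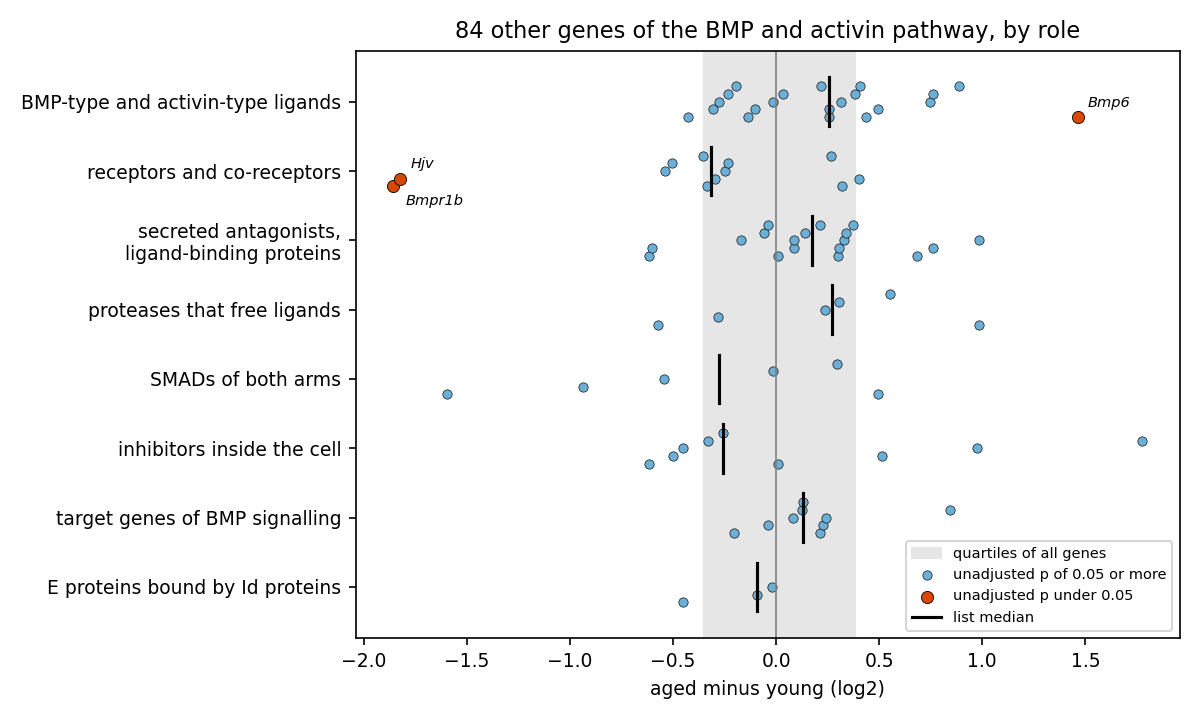
Difference aged minus young (horizontal axis, log2) of 84 further genes of the pathway, in rows by role; black bars are list medians, the grey band runs from the lower to the upper quartile of all 18193 genes (-0.35 to 0.38), and orange marks an unadjusted p under 0.05. Bmp6 lies to the right at 1.46 and Bmpr1b and Hjv to the left at -1.86 and -1.82, while most points lie in or near the grey band.

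Among the other ligands, 13 of 21 measured were higher and 8 lower, with a median of 0.25. Bmp6, a BMP best known for controlling hepcidin and iron in the liver, read -0.44 in young 1, -0.77 in young 2, 1.26 in aged 1 and 0.44 in aged 2. Its difference was 1.46 ± 0.44, or 2.75-fold (unadjusted p = 0.0181, limma adjusted p = 0.390), and both aged pools lay above both young pools.

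Among the other receptors and co-receptors, 9 of 12 were lower, with a median of -0.31. Bmpr1b encodes ALK6, the type I receptor closest to ALK3. Its gene mean was 0.79 in young 1, 1.04 in young 2, -0.99 in aged 1 and -0.89 in aged 2, a difference of -1.86 ± 0.36 (unadjusted p = 0.00275, limma adjusted p = 0.194). Its 3 probe sets disagreed, with differences of -4.38 in 1443720_s_at, -1.42 in 1422872_at and 0.23 in 1437312_at. With probe sets of the _x_at and _s_at kinds dropped, the gene difference was -0.59 (limma adjusted p = 0.802), and read from its most variable probe set it was -4.38.

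Hjv, the co-receptor hemojuvelin, which skeletal muscle fibres, heart and liver express, stood at -1.82 ± 0.54 (unadjusted p = 0.0168, limma adjusted p = 0.377). It read 1.63 in young 1 and 0.45 in young 2, and -1.13 in aged 1 and -0.45 in aged 2. Both of its probe sets were lower, with differences of -1.92 and -1.72. The activin receptors Acvr2a (-0.50 ± 0.43) and Acvr1b (0.32 ± 0.39) had overlapping ages and adjusted p-values of 0.849 and 0.907 with limma.

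The SMADs were split, with 4 of 6 lower and a median of -0.28. Smad1, the main BMP SMAD with Smad5, had a gene mean of 0.46 in young 1, 0.00 in young 2, -0.24 in aged 1 and -2.49 in aged 2. Its difference of -1.60 ± 0.77 (limma adjusted p = 0.648) rested on aged 2, which read -3.77 and -4.47 in 2 of its 3 probe sets and 0.76 in the third. Without aged replicate 2 the Smad1 difference was -0.47, and without aged replicate 1 it was -2.72. Smad5 stood at -0.54 ± 0.54, Smad9 at 0.30 ± 0.39 and Smad4, the partner shared by both arms, at -0.01 ± 0.45, all with overlapping ages. Of the SMADs of the activin arm, Smad2 stood at 0.49 ± 0.53 with overlapping ages. Smad3 stood at -0.94 ± 0.42 (limma adjusted p = 0.608), with both aged pools below both young. Its 3 probe sets were all lower, by differences from -1.27 to -0.51.

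Of the secreted antagonists, 13 of 18 were higher, with a median of 0.17 and 0 at an unadjusted p under 0.05. The BMP antagonist Nog stood at 0.34 ± 0.38 and the follistatin relative Fstl3 at -0.06 ± 0.35. Proteases that free ligands had a median of 0.27 over 6 genes, and inhibitors inside the cell a median of -0.26 over 9.

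The other BMP targets had a median of 0.13 over 9 genes, 7 of them higher, and the smallest unadjusted p was 0.548. Id4, the fourth Id gene, read -0.44 in young 1, 0.24 in young 2, 0.06 in aged 1 and -0.01 in aged 2, a difference of 0.13 ± 0.41 (limma adjusted p = 0.972). The E proteins that Id proteins bind stood at -0.09 ± 0.39 for Tcf3, -0.02 ± 0.38 for Tcf4 and -0.45 ± 0.59 for Tcf12, all with overlapping ages. Whether Id1, Id2 and Id3 differed from these genes in their response to age was not tested.

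The pools also differed between ages in markers of other cell types, which is given here because several members are expressed outside satellite cells. Markers of mature muscle fibres, a source of Hjv, had a lower value in the aged pools for 20 of 20 genes (median difference -2.92). Their mean was 1.44 and 1.39 in young 1 and 2, and -1.60 and -1.51 in aged 1 and 2. Endothelial markers were lower for 9 of 12 genes (median difference -0.41). Their array means were 0.38, 0.04, -0.26 and -0.52 in the order young 1, young 2, aged 1 and aged 2. Macrophage markers were lower for 9 of 10 genes (median difference -1.10).

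Lists with array means that were higher in both aged pools, as the mean of the Id genes was, were those of pericytes and smooth muscle (10 of 10 genes, median 1.05), T and B cells (8 of 8, median 1.19), Schwann cells (6 of 6, median 0.68), fibro-adipogenic progenitors (8 of 9, median 0.52) and satellite cells (5 of 10, median -0.01, but with a higher mean in both aged pools). In the satellite cell list, Pax7 (2.31 ± 0.36, limma adjusted p = 0.150) and Myf5 (2.56 ± 0.63, limma adjusted p = 0.288) were higher in aged pools. So was Sdc4 (1.22 ± 0.53, limma adjusted p = 0.593). In each of them both aged pools lay above both young, as in 19.9% of all genes. The other satellite cell markers lay between -0.29 and 0.09, with overlapping ages. Since values are centred, no summed level can be given, nor which markers are absent. The part of these cell types in the differences of the Id genes, the receptors and Hjv was not tested.

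**Figure D4:**
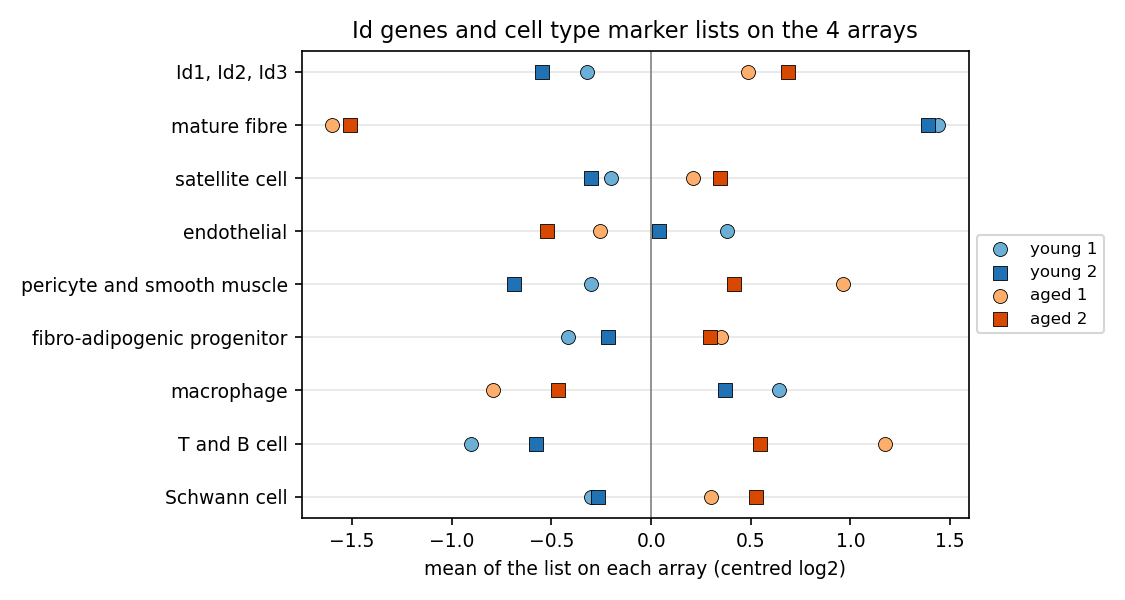
Mean centred log2 value (horizontal axis) of Id1, Id2 and Id3 and of 8 cell type marker lists (rows) on each of the 4 arrays. The Id genes stand at -0.55 and -0.32 in young pools and at 0.49 and 0.69 in aged pools; the fibre list lies the other way and over a far wider range, from -1.60 to 1.44.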

How the data were processed

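Satellite cell RNA of 2 young and 2 aged pools was measured on Affymetrix arrays after 2 rounds of amplification, per the labels' protocols. The authors deposited 1 table, taken here as log2 values, in which the median of each of the 45101 probe sets over the 4 arrays is 0 within 5e-07. Log base, background correction and normalization are not given in the sources; another base would change every fold but no direction. Direction (higher means more RNA) is likewise assumed. Centring removes levels, so no filter on low values or pseudocount could be applied, and precision is limited by the number of arrays.

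Gene names came from the platform annotation and were brought up to date through Entrez IDs, which matched for 34741 of 34945 probe sets with 1 symbol. Another 932 with several symbols, 9160 with none and 64 controls were left out. A gene's value is the mean of its probe sets. The age difference, aged minus young, was fitted by lmFit and eBayes without trend (limma 3.58.1, R 4.3.3; two-sided) on all 34945 probe sets and on all 18193 genes, with Benjamini-Hochberg adjustment over each table and a threshold of 0.05. The fit was tested on simulated data. An exact permutation of 2 against 2 pools cannot go below p = 0.333, so none is given. Whether pools of 1 age share animals or days is not stated. The p-values and standard errors rest on the spread between these pools only. For each gene, eBayes combines its own spread (2 residual degrees of freedom) with that of all genes (3.56 prior degrees of freedom). For probe sets the prior degrees of freedom were 2.68.

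Members and lists were chosen with earlier results of these data known. Named were all members and their probe sets, other pathway genes with an unadjusted p under 0.05, and a preset group of SMADs, receptors, antagonists, Id4 and E proteins. The genes most like a member were named for members at that p. Smad2 and Smad3 were outside the preset group and were added after their values were seen. Alternatives were quantile normalization, array median centring, the variance trend, a replicate block, other choices of probe sets and leaving out each array. Figures were drawn with matplotlib 3.10.9.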

Additional observations from a re-analysis of the deposited data

How the results depend on the processing

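With 2 pools per age, precision is limited by the number of arrays, and a value with no adjusted call is not shown to be unchanged. Under every alternative run, 0 members and 0 other pathway genes passed the adjusted threshold of 0.05 with limma. Over the whole array 221 genes and 183 probe sets passed it with the variance trend, and 0 under each of the other alternatives. The counts that follow are at an unadjusted p under 0.05. With the replicate number as a replicate block, 3 other pathway genes were higher in aged cells (1 without it), where 3.02% of all genes were. No count of members changed. The labels do not say that same-numbered pools are paired, and over genes their deviations from the age means correlated at 0.138. The count of other pathway genes higher was 2 when probe sets of the _x_at and _s_at kinds were dropped (2.83% of all genes). It was also 2 when each gene was read from its most variable probe set (largest SD, 2.46% of all genes). With the variance trend, 1 member gene was lower in aged cells, Acvr1, against 0, where 6.61% of all genes were lower. Read from the most variable probe set, the 1 member gene higher was Id2 in place of Id1, where 2.46% of all genes were higher. In the fits with 1 array left out, counts of members and of other pathway genes changed. These fits rest on 3 arrays, with the lone pool taken to vary like the other age.

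No direction of Id1, Id2, Id3, Acvr1, Bmpr1a or Acvr2b turned at the level of the gene under any alternative run. Read from the most variable probe set, Bmpr2 stood at -0.063, Smad4 at 0.62 and Tcf4 at 0.20; dropping the _x_at and _s_at kinds put Tcf4 at 0.062. The Fst probe set 1421365_at was -0.023 after quantile normalization and -0.013 after array median centring, against 0.027. Without 1 array, values that changed sign ran from -0.47 to 2.03 for Bmp4 and its probe set 1422912_at, from -0.38 to 1.02 for Fst, from -0.22 to 0.28 for 1421365_at, from -0.54 to 1.77 for 1434458_at, from -1.35 to 0.16 for the Bmpr1a probe set 1425493_at, from -0.50 to 0.37 for 1419616_at and -0.47 to 0.34 for 1434310_at of Bmpr2, and from -1.88 to 0.96 for the Acvr1 probe set 1448460_at. For other named genes they ran from -1.19 to 0.11 for Smad5, -0.47 to 0.44 for Smad4, -0.22 to 0.47 for Id4, -0.36 to 0.17 for Tcf3, -0.23 to 0.19 for Tcf4 and -1.15 to 0.24 for Tcf12. The cause of these changes was not tested.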

Other observations

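Bmp4 was not alone in parting the pools by number rather than by age. Among the members and the 84 other pathway genes, the 4 with the largest difference between pools numbered 1 and 2, chosen after their values were seen, were Hey1, Bambi, Smurf2 and Bmp4, and all 4 were higher in the pools numbered 1. Hey1, a target of both Notch and BMP signalling, read 1.15 in young 1, -1.15 in young 2, 3.49 in aged 1 and -1.80 in aged 2. Bambi, a decoy receptor without a kinase, read 0.50, -1.58, 2.98 and -0.50 in the same order. Smurf2, a ubiquitin ligase that removes SMADs and receptors, read 1.36, -1.49, 0.61 and -1.26. The mean difference between numbers 1 and 2 was 3.79 for Hey1, 2.78 for Bambi, 2.36 for Smurf2 and 2.36 for Bmp4, and 99.5% of all genes had a smaller one than Bmp4. In Id1 only 3.06% of genes had a smaller one.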
